A study of Homo sapiens with 6 samples.

Results

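Glucocorticoid receptor (GR) binding was described around 9 transcription factor genes, the Krüppel-like factor genes KLF9, KLF6, KLF4, KLF5, KLF15 and KLF2 and the CCAAT/enhancer-binding protein genes CEBPA, CEBPB and CEBPD. A peak was counted for a gene when its centre lay in a fixed window of the hg19 build, made of the gene body and about 50 kb at each side. The windows were chromosome 9, 72.95 to 73.08 Mb (KLF9), chromosome 10, 3.76 to 3.88 Mb (KLF6), chromosome 9, 110.19 to 110.31 Mb (KLF4), and chromosome 13, 73.57 to 73.71 Mb (KLF5). Those of the other KLF genes were chromosome 3, 126.01 to 126.13 Mb (KLF15), and chromosome 19, 16.38 to 16.49 Mb (KLF2). For the CEBP genes they were chromosome 19, 33.74 to 33.85 Mb (CEBPA), chromosome 20, 48.75 to 48.86 Mb (CEBPB), and chromosome 8, 48.59 to 48.71 Mb (CEBPD). The windows span 1.08 Mb together and held 99 of the 116356 peaks of all lists. Merged into sites, the peaks called after dexamethasone gave 31 sites in the windows, of 43713 in the genome. A window can also hold regulatory DNA of a neighbour. By gene order in RefSeq (GRCh38.p14), the neighbouring protein-coding genes are SMC5 and TRPM3 for KLF9, and ALDH1L1 and CFAP100 for KLF15. For KLF2 they are AP1M1 and EPS15L1, and for CEBPD SPIDR and PRKDC. KLF4 lies between RAD23B and ACTL7B, KLF5 between PIBF1 and KLF12, and CEBPA between SLC7A10 and CEBPG. On the side of higher coordinates, KLF6 is followed by AKR1E2 and CEBPB by PTPN1.

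GR is a steroid receptor that enters the nucleus when it binds a glucocorticoid and then attaches to DNA, often far from the genes it regulates. The mineralocorticoid receptor (MR) is its closest relative, binds glucocorticoids too, and recognises the same hormone response elements. Several KLF and CEBP genes are known as early glucocorticoid targets, and their products are DNA-binding proteins that pass the signal on to further genes. KLF proteins carry zinc fingers that recognise GC-rich and CACCC-type sequences. CEBP proteins are basic leucine zipper factors known for their part in the differentiation of fat, liver and myeloid cells.

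The study used a pair of stable lines made from U-2OS, a human osteosarcoma line. The GR cell and the MR/GR cell, in which MR is present together with GR, received DMSO vehicle or 100 nM dexamethasone, a synthetic glucocorticoid, for 2 hr. Chromatin of these 4 combinations was immunoprecipitated with the same GR antibody. Each had 3 numbered peak lists, taken here as replicates (n = 3). Whether they stand for separate cultures is not said in the labels. The spread behind every p-value is therefore that between these lists and may be technical. Each receptor combination is 1 line, and the labels give neither the promoter that drives the receptors nor whether a line is a clone, so receptor and line cannot be told apart. The cell type could not be checked against marker genes, since peak lists measure no expression. The GR cell had 26191 to 37650 peaks per treated list and 122 to 238 per vehicle list, and the MR/GR cell 3713 to 10459 and 11 to 132. The lists give positions with no heights. With read depth unknown, a missing peak may be one that fell short of the calling threshold. Median peak widths were 354 to 424 bp in treated GR-cell lists and 280 to 304 bp in treated MR/GR-cell lists. In the windows, each site found in 1 list alone had exactly the median width of that list. Widths may thus be set per list, and were not read as a difference between the lines. They also bear on which peaks overlap.

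Starts of transcription of the members were compared with the GR motif, a pair of the hexamers AGAACA and TGTTCT in that order with 3 free bases between. Each promoter spanned 250 bases before the start and 50 after it (RefSeq, GRCh38.p14). This is another build than that of the peaks, so no peak was placed on these sequences. Of the 9 genes 8 had an entry, with 10 promoters in all, and CEBPD was not matched. The pair with at most 2 mismatches was found in 0 of the 10, against 1.41% of all 35116 promoters. At that rate 0 was the likeliest count for 10 promoters. A single hexamer, on either strand, was found in 1 of the 10, against 14.8% of all promoters, and an exact pair holds both. The other KLF5 promoter held no hexamer. Neither count is a result about the members. Shown here are the promoter with the hexamer in capitals, which belongs to KLF5, a gene with no GR peak in its window, and that of KLF9, where all 3 sites found in 2 or more GR-cell lists were also found in the MR/GR cell. The promoter of CEBPB follows, at the start whose window of 300 bases ends last, because 2 of that gene's 3 sites were called in every treated list. The KLF9 sequence is AT-rich, with 32.7% G and C, and that of CEBPB GC-rich, with 76.7%.
KLF5, chr13:73054726-73055025, plus strand: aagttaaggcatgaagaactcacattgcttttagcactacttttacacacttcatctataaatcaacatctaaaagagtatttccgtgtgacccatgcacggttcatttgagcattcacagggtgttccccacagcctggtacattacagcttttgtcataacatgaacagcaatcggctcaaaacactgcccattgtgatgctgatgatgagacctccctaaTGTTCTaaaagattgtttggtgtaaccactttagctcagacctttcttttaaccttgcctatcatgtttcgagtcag
KLF9, chr9:70414608-70414907, minus strand: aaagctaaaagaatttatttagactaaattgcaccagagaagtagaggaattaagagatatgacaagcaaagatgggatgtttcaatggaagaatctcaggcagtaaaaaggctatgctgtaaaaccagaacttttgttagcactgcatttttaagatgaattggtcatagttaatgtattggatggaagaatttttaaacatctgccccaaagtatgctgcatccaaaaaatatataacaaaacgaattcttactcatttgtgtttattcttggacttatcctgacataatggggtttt
CEBPB, chr20:50190580-50190879, plus strand: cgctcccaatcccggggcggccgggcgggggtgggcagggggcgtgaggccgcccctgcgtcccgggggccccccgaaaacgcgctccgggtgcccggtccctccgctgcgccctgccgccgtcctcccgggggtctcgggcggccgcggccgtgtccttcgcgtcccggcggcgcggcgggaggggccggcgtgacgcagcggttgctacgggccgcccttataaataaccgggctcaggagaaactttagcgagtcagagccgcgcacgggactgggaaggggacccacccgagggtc

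After dexamethasone, 7 of the 9 genes had GR peaks in the GR cell, and all 7 had a site shared by at least 2 of its lists. Such a site was also in 57.5% of all genome tiles of 0.12 Mb, against which 7 of 9 windows is no result about the members. KLF9, KLF6, KLF4, KLF15, KLF2, CEBPB and CEBPD each had a peak in all 3 treated GR-cell lists. KLF5 and CEBPA had none in any of the 12 lists. Without ligand no gene had a peak, with 0 peaks in each of the 6 vehicle lists. The windows held 27, 22 and 20 peaks in the treated GR-cell lists (23 ± 3.61, SD, n = 3) and 8, 13 and 9 in the treated MR/GR-cell lists (10.0 ± 2.65, SD, n = 3).

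Set against a floor of 3 peaks over the vehicle lists of a line, treated peaks were at least 23-fold higher in the GR cell and at least 10.0-fold higher in the MR/GR cell. Over both lines the difference was 4.0 on the log2(peaks + 1) scale (SE 0.11), a value that the pseudocount sets in part, since every vehicle list was at 0. Treatments permuted within each line gave an exact permutation p = 0.005 (two-sided), the smallest that 400 arrangements allow. In a replicate block by list number, the exact sign-flip p was 0.25, the smallest for 3 pairs. Within 1 line the exact permutation test of 3 lists against 3 cannot go below p = 0.1, which both lines gave. The whole lists rose as well, from 588 to 94753 peaks in the GR cell and from 183 to 20832 in the MR/GR cell. The fold values and p-values of the windows are therefore not particular to these genes.

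The vehicle zeros come from short lists. The GR cell had 588 vehicle peaks in all, so that 0 of them in the windows allows a share of up to 0.510%. The treated GR-cell share was 0.0728%, at which 588 peaks would put 0.428 peaks in the windows. For the 183 vehicle peaks of the MR/GR cell the limit was 1.64% and the corresponding number 0.264. A preference of unliganded GR for or against these genes was therefore not detectable. The vehicle peak nearest to any of the windows lay 324 kb beyond the edge of that of CEBPD, in the GR cell. Floors and intervals here cover counting error only.

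**Figure D1:**
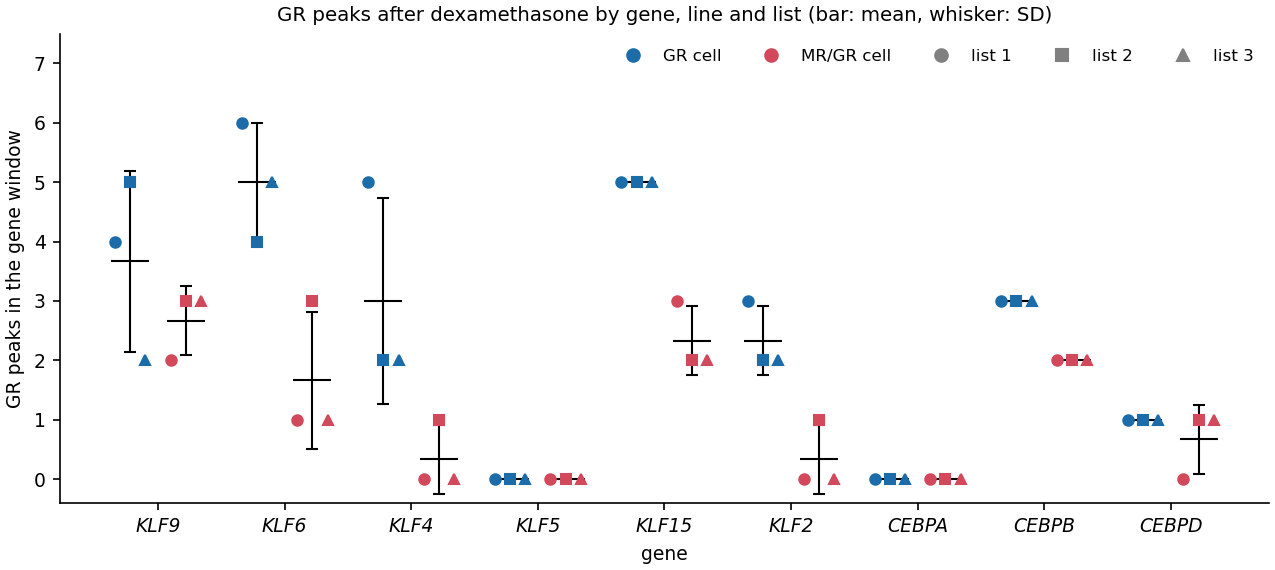
GR peaks after dexamethasone (y axis, number of peaks) in the window of each gene (x axis), with 1 symbol per list, blue for the GR cell and red for the MR/GR cell. Horizontal bars are means and whiskers SDs over 3 lists. KLF6, KLF4, KLF15, KLF2 and CEBPB have more peaks in every GR-cell list than in any MR/GR-cell list, KLF9 and CEBPD overlap, and KLF5 and CEBPA are at 0.

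The comparison in the title of the series, GR with and without MR, gave fewer peaks in the windows of the MR/GR cell. The difference was -1.14 on the log2(peaks + 1) scale (SE 0.23), or 2.21-fold fewer. A two-sided exact permutation test gave p = 0.1, its minimum for 3 lists against 3. Every GR-cell list held more peaks in the windows than any MR/GR-cell list. The whole lists differed by more, -2.29 on the same scale (SE 0.46), or 4.90-fold.

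KLF6, a zinc finger gene known as a tumour suppressor and injury-response factor, had 6, 4 and 5 peaks in the GR cell and 1, 3 and 1 in the MR/GR cell. KLF15, a known glucocorticoid target in liver, muscle and airway that controls amino acid and glucose metabolism, had 5 peaks in each GR-cell list and 3, 2 and 2 in the MR/GR cell. CEBPB, an early factor of fat cell and macrophage differentiation, had 3 peaks in each GR-cell list and 2 in each MR/GR-cell list. For these genes the lines did not overlap, and the MR/GR cell kept peaks in all of its lists.

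KLF4, a pluripotency and epithelial differentiation factor, had 5, 2 and 2 peaks in the GR cell and 0, 1 and 0 in the MR/GR cell. KLF2, known for keeping endothelial cells and T cells quiescent, had 3, 2 and 2 peaks against 0, 1 and 0. At both genes the only MR/GR-cell peak came from list 2, the longest list of that line.

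KLF9, a repressor that glucocorticoids induce in many tissues, had 4, 5 and 2 peaks in the GR cell and 2, 3 and 3 in the MR/GR cell. The lines overlapped at KLF9, and MR/GR list 3 had more peaks there than GR list 3. CEBPD, which dexamethasone is known to induce in differentiating fat cells, had 1 peak in each GR-cell list and 0, 1 and 1 in the MR/GR cell. The lines overlapped there as well.

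Of the 7 genes with peaks, the lines did not overlap at 5, all with more peaks in the GR cell. The background for this count is high. Of 17437 genome tiles of 0.12 Mb with a treated peak, 55.0% had every GR-cell list above every MR/GR-cell list, and 8 tiles showed the reverse. With 7 genes against that background, the count is no result about the members.

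Relative to the length of the lists, the windows took a larger part of the MR/GR-cell peaks. They held 0.0717%, 0.0712% and 0.0764% of the treated GR-cell lists (mean 0.0731% ± 0.00285, SD, n = 3). In the MR/GR cell they held 0.215%, 0.124% and 0.135% (mean 0.158% ± 0.0498, SD, n = 3), a ratio of 2.17. All 3 MR/GR-cell lists lay above all 3 GR-cell lists, and the difference of 0.0852 percentage points (SE 0.0288) had p = 0.1 by the same exact permutation test, again its minimum. How often genome tiles separate the lines in this way by share of the list was not counted. The values rest on 8 to 27 peaks a list, and the Wilson 95% interval of the highest, MR/GR list 1, ran from 0.109% to 0.425%. List 1 is also the shortest treated list. Without it the difference was 0.0566 points, 1.5 times smaller, and without KLF9 it was 0.0542 points.

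**Figure D2:**
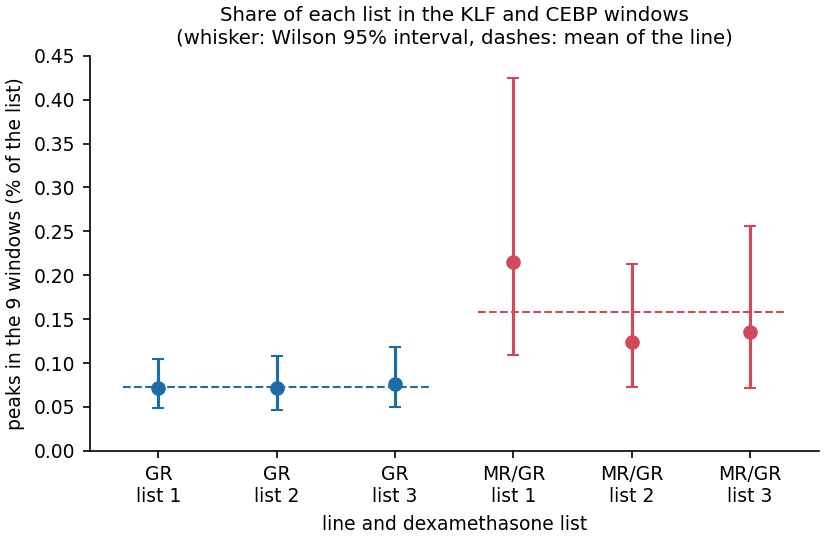
Percent of all peaks of a treated list that lie in the 9 windows (y axis), by line and list (x axis), with Wilson 95% intervals as whiskers and the mean of each line dashed. The GR-cell lists lie between 0.0712% and 0.0764% and the MR/GR-cell lists between 0.124% and 0.215%.

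The KLF and CEBP families did not differ in which line had the larger share. The 6 KLF windows held 23, 18 and 16 GR-cell peaks and 6, 10 and 6 MR/GR-cell peaks, or 0.0582% to 0.0611% of GR-cell lists and 0.0901% to 0.162% of MR/GR-cell lists. In the 3 CEBP windows there were 4 peaks in each GR-cell list and 2, 3 and 3 in the MR/GR cell, or 0.0106% to 0.0153% against 0.0287% to 0.0539%. In both families each MR/GR-cell list lay above each GR-cell list. The CEBP shares rest on 2 to 4 peaks a list, and CEBPA gave none of them. A difference between the families was not tested.

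Peaks of the 6 treated lists were then merged into sites where they overlapped by at least 1 bp, and a line was said to hold a site when a peak covered it in 2 or 3 of its lists. The GR cell held 22 of the 31 sites and the MR/GR cell 9. All 9 were also GR-cell sites, against 90.9% of MR/GR-cell sites over the genome. No site was held by the MR/GR cell and absent from all GR-cell lists. Peaks of 1 list alone made up 9 sites, of which GR list 1 gave 5, GR list 2 gave 2 and MR/GR list 2 gave 2.

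Of the 22 GR-cell sites, the MR/GR cell held 40.9% (9 sites, Wilson 95% interval 23.3 to 61.3), against 17.9% over the genome. Of the 22 sites, 8, 11 and 9 had a peak in MR/GR lists 1, 2 and 3, or 36.4% to 50% of them, against 11.4%, 25.4% and 19.6% of the genome's GR-cell sites. The windows were above the genome in each list. The result leans on few sites, and KLF9 carries 3 of the 9. Without KLF9 the share was 31.6% (6 of 19, interval 15.4 to 54.0), an interval that includes the genome's 17.9%. Sites are not replicates, and some lie close together, so both intervals cover counting error only. Neither interval is a test of the share against the genome. Leaving out MR/GR list 2 or list 3 gave 31.8%, and the genome then 10.5% or 10.9%. Leaving out MR/GR list 1 gave 40.9%, and the genome then 17.0%. With a list left out, an MR/GR-cell site had to be in both remaining lists, a harder rule than 2 of 3.

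Among sites of 3 GR-cell lists, 7 of 18 in the windows had no peak in any MR/GR-cell list, or 38.9% (20.3 to 61.4), against 65.6% over the genome. Sites called in all 6 treated lists numbered 6 of the 31, against 6.9% of sites over the genome. These shares come from the same sites as the last paragraph and are not separate evidence.

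How many GR-cell sites lie close together goes with the share kept. Over the genome, tiles of 0.12 Mb with 1 GR-cell site kept 13.1% of such sites in the MR/GR cell, those with 3 kept 18.3%, and those with 5 kept 22.6%. KLF9 (3 of 3 sites), CEBPD (1 of 1), CEBPB (2 of 3) and KLF15 (2 of 5) lay above the tiles with as many sites. KLF6 (1 of 5), KLF4 (0 of 3) and KLF2 (0 of 2) lay below. CEBPD rests on 1 site, and without MR/GR list 2 or list 3, or with all 3 lists required, it had 0 of 1 and lay below. Without GR list 1, KLF4 had 0 of 1. Single windows with 1 to 5 sites give no more than a description.

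**Figure D3:**
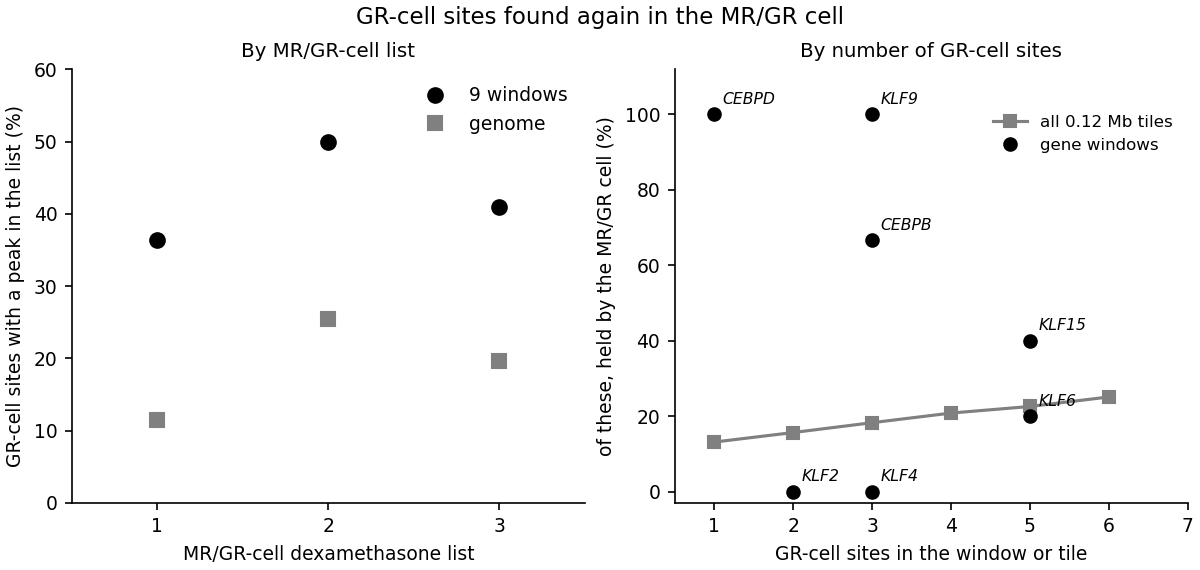
Left, percent of GR-cell sites with a peak in each MR/GR-cell treated list (x axis), for the 9 windows (circles) and the genome (squares). The windows lie at 36.4% to 50% and the genome at 11.4% to 25.4%. Right, percent of GR-cell sites held by the MR/GR cell (y axis) against the number of GR-cell sites (x axis), for each gene window (circles) and for all tiles of the genome (squares and line), which rise from 13.1% at 1 site to 22.6% at 5.

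In number of sites, KLF6 and KLF15 led with 5 GR-cell sites each, followed by KLF9, KLF4 and CEBPB with 3, KLF2 with 2 and CEBPD with 1. Of all 25770 tiles of the genome, 3.45% had at least 5 GR-cell sites, 15.7% at least 3 and 57.5% at least 1, whereas 7 of the 9 windows had at least 1. In the MR/GR cell KLF9 had 3 sites, KLF15 and CEBPB 2, and KLF6 and CEBPD 1. The difference between KLF9 and the next genes is 1 site. Without MR/GR list 2 or list 3, or with sites required in all 3 lists, KLF9, KLF15 and CEBPB each had 2. At least 1 MR/GR-cell site was in 5 of the 9 windows and in 17.0% of tiles, and 1.25% of tiles had at least 3. Windows are centred on genes and measure 110 to 140 kb, while tiles include stretches without genes or without mappable sequence, so tiles are a loose background. With sites of at least 1 list counted, KLF9, KLF6 and KLF15 each had 3 in the MR/GR cell, and KLF9 and KLF6 each had 6 in the GR cell. With windows 50 kb longer at each side KLF9 had 4 GR-cell and 5 MR/GR-cell sites.

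The sites at KLF9 lay mostly on the side of higher coordinates. The site called in all 6 lists was chromosome 9, 73034824 to 73035247, and its peak centres fell within 27 bp of one another. Only 0.829 kb from it, the site at 73034024 to 73034389 was called in all 3 MR/GR-cell lists and in GR lists 1 and 2. Of the 7 sites of 3 MR/GR-cell lists in the windows, it was the only one in fewer than 3 GR-cell lists (14.3%). Over the genome this held for 6.54% of the 3228 sites of 3 MR/GR-cell lists. With 7 sites, the share is no result about the members. Both sites lay 4.21 and 5.04 kb beyond the part of the window left after taking off 50 kb at each side, which approximates the gene body to about 10 kb. Another shared site, 73053482 to 73053916, was in 3 GR-cell lists and in MR/GR lists 2 and 3. The remaining 3 KLF9 sites were each in 1 GR-cell list.

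KLF6 had a row of GR-cell sites between 28.2 and 39.7 kb above the centre of its window. Of these, chromosome 10, 3852312 to 3852749, was called in all 6 lists. The sites on either side of it, at 3847974 and 3853466, were in 3 GR-cell lists and in MR/GR list 2 alone. A site on the other side of the window, at 3796940, was in all GR-cell lists and in none of the MR/GR cell.

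At KLF15 all 5 sites were in 3 of 3 GR-cell lists. Chromosome 3, 126066268 to 126066691 and 126074664 to 126075096, were called in all 6 lists. The pair lay 8.40 kb apart inside the middle part of the window, and one more site there, at 126060652, was in no MR/GR-cell list. Further out, the site at 126107974 was in 3 GR-cell lists and MR/GR list 1, and that at 126028370 in 3 GR-cell lists alone.

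At CEBPB lay 2 sites in all 6 lists, chromosome 20, 48754399 to 48754851 and 48841470 to 48841901. They lay 87.1 kb apart on opposite sides of the window's middle part, the first within 5 kb of the window's edge. The next site, 6.29 kb beyond the second, at 48847761 to 48848184, was in all GR-cell lists and in none of the MR/GR cell, with peak centres within 11 bp. No site lay in the middle part of the CEBPB window.

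CEBPD had a single site, chromosome 8, 48647599 to 48648022, inside the middle part of its window, in 3 GR-cell lists and in MR/GR lists 2 and 3. It was absent from MR/GR list 1, the shortest. The nearest other site of the treated lists was 75.7 kb away.

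At KLF4 the site in most lists was chromosome 9, 110280876 to 110281438, in all GR-cell lists and in none of the MR/GR cell. A further 2 KLF4 sites were each in 2 GR-cell lists, and the lone MR/GR-cell peak was 13.98 kb from the nearest site of any list of the GR cell on one side and 8.24 kb on the other. At KLF2 the sites at chromosome 19, 16404040 to 16404469 and 16412817 to 16413240, were both in all GR-cell lists and in none of the MR/GR cell. The MR/GR list 2 peak at KLF2, 16404481 to 16404764, began just beyond the former and was centred 0.368 kb from it, so it counted as a site of its own.

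**Figure D4:**
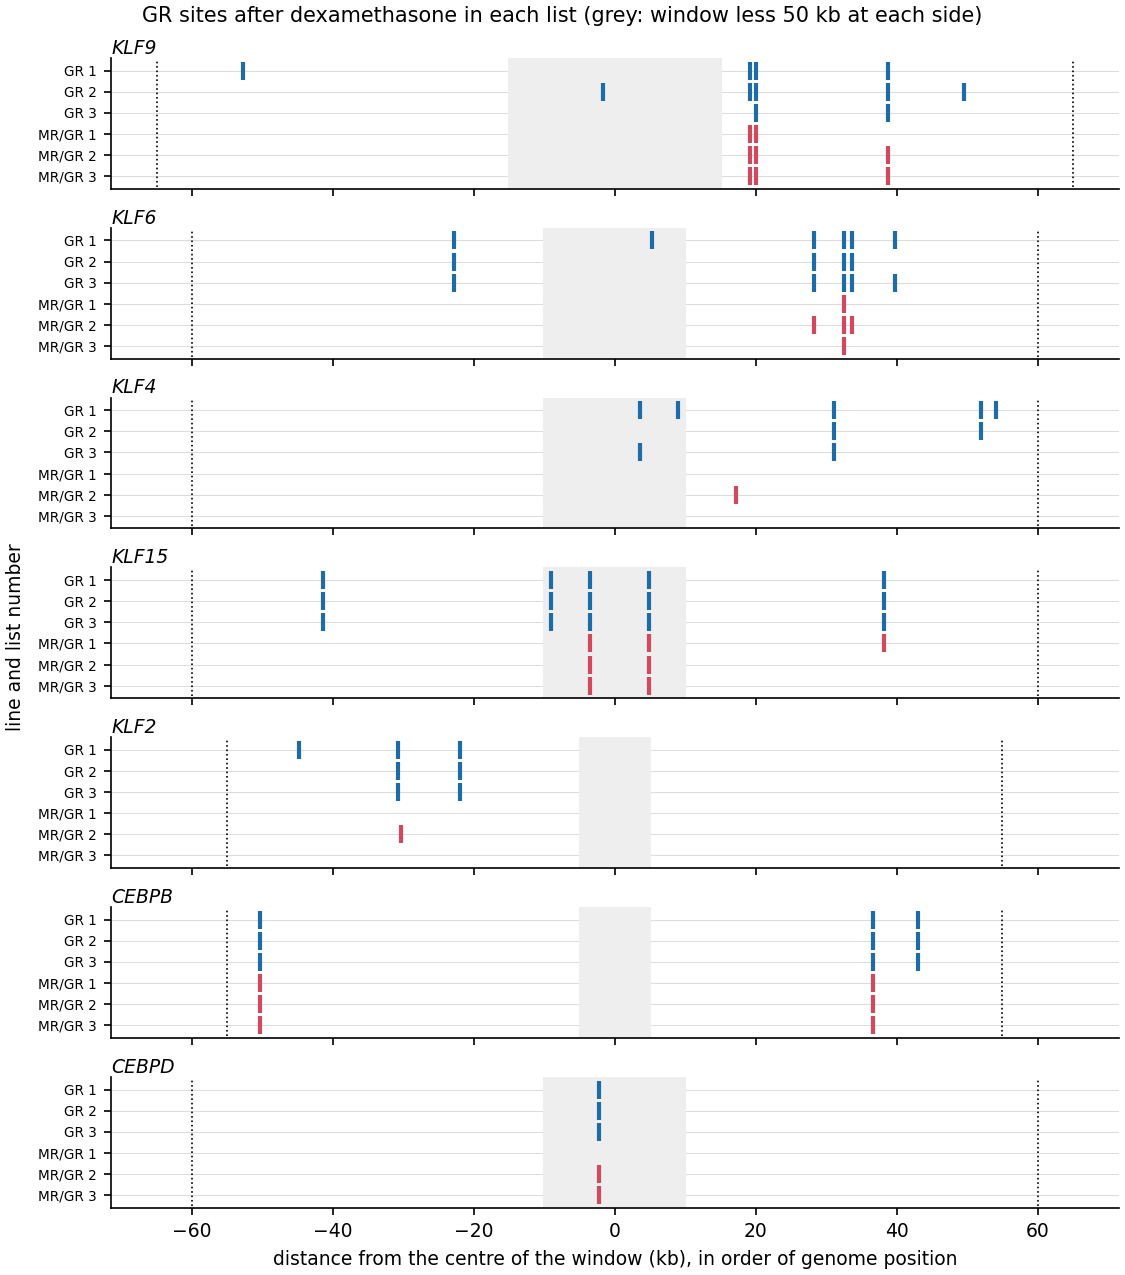
Position of each site (x axis, kb from the centre of the window, in order of genome position) in each treated list (rows), for the 7 genes with sites. Ticks in one column are 1 site, dotted lines are the window's edges, and grey is the window less 50 kb at each side. KLF15 and CEBPB each show 2 columns present in all 6 rows, and KLF4 and KLF2 have a single red tick each.

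KLF5, a factor of epithelial proliferation, and CEBPA, the factor of terminal fat cell and granulocyte differentiation, had no site. The nearest GR-cell site to the KLF5 window was 53.7 kb beyond its edge, at chromosome 13, 73763400 to 73763893, in all GR-cell lists and in none of the MR/GR cell. For CEBPA it was 79.2 kb beyond the edge, at chromosome 19, 33928936 to 33929454, again in all GR-cell lists and in none of the MR/GR cell. A treated peak of the GR cell came as near as 16.6 kb to the CEBPA window. Treated MR/GR-cell peaks came no nearer than 1157 kb and 859 kb.

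Over all genes, 5 of the 22 GR-cell sites lay in the middle part of a window, and so did 3 of the 9 sites held by both lines. The rest lay outside the middle parts. These measure 10 to 40 kb with rounded limits, so a site inside one need not lie in the gene itself. Peak centres of a site lay within a median of 51.0 bp of one another at the 9 shared sites (27 to 143 bp) and 62.0 bp at the other 13 GR-cell sites (11 to 215 bp). The number of peaks at a site differs between these sets, so these spreads were not compared.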

How the data were processed

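The authors deposited 3 BED lists for each of 4 GR immunoprecipitations. Each line of a deposited list gives the chromosome, start and end of a peak, with no header and no value besides. The build was hg19 and the tools HOMER 4.8.3, Picard 1.115, SAMtools 1.3.1, Bowtie and Trim Galore 0.4, per the submitters' processing notes. Their roles and settings are not given in the sources used here. No peak list of the 2 input samples was used here. By their names the deposited lists were called against an input, and which input is not said. The GR-cell input is labelled 100 nM, and the MR/GR-cell input has no dose in its label. The control for calling may therefore differ between the lines. List numbers come from the deposited lists, not from the labels.

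Peaks were counted per window and list, compared as log2(peaks + 1) or as percent of the list by exact permutation tests, and merged into sites. Coordinates of windows and sites are hg19, counted from 1, and those of the printed promoters are GRCh38.p14. All 9 genes were named, and sites by a rule: the site in most lists per gene, sites in all 6 treated lists, sites of the MR/GR cell alone, and vehicle peaks. Further sites were described after their values were seen. The members and lists were chosen with earlier results of these data known. Other KLF and CEBP genes, and sequences under peaks, were not analysed here, since an hg19 annotation and genome were not used here. The tools were SciPy 1.17.1, pandas 2.3.3, numpy 2.4.6 and matplotlib 3.10.9 in Python 3.11.15.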

Additional observations from a re-analysis of the deposited data

How the results depend on the processing

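Of 126 alternatives for the main comparisons, 121 kept their direction and side of 0.05, or stayed within 1.5 times for counts and within the interval for shares, and 0 reversed. Exact tests of 3 lists against 3 cannot pass 0.05, so for them this reads size and direction only. Shares and counts of sites could only stay or move, so a reversal was possible for the differences in peaks and shares of lists alone. Some alternatives could not change a value, such as leaving out a vehicle list or a gene without peaks (KLF5 or CEBPA). The tally is therefore no measure of robustness by itself. In a replicate block by list number, the dexamethasone difference was 4.0 with p = 0.25 (exact sign-flip), and the differences between the lines, -1.14 and 0.0852 points, also had p = 0.25. Over tiles, a correlation used only to match list numbers gave 0.0418, -0.0410 and -0.0016 for treated lists with the same number. Lists with different numbers gave -0.0540 to 0.0489, so the numbers were not taken as pairs. These values do not measure how far the lines share sites. Over the genome, 90.9% of MR/GR-cell sites were also GR-cell sites. With windows extended by 50 kb at each side, 10 sites were in all 6 lists and 11 in all GR-cell lists but none of the MR/GR cell. With windows shortened by 30 kb at each side these counts were 3 and 3. In the longer windows KLF9 had 5 MR/GR-cell sites against 4 GR-cell sites, and CEBPD had 6 GR-cell sites. In the shorter windows CEBPB had 0 sites. Matching peaks by centres within 100 bp gave 42.9% of GR-cell sites held by the MR/GR cell, and sites required in all 3 lists gave 33.3% (13.2% over the genome). Leaving out 1 list gave -1.33 to -1.01 for the difference in peaks, 0.0566 to 0.102 points for the share, and 31.8% to 45.0% for sites held. A site of the line with a list left out had to be in both remaining lists. Without MR/GR list 2 or 3, CEBPD had 0 MR/GR-cell sites, and without GR list 1, KLF4 had 1 GR-cell site. Leaving out single genes other than KLF6 and KLF15 was chosen after seeing the data.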
